A study of Mus musculus with 12 samples.

Results

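The genes described here are 7 subunits of the GABA-A receptor, Gabra2, Gabra3, Gabra4, Gabra5, Gabrb1, Gabrb2 and Gabrg1, with the RNA editing sites listed at the Gabra3 gene. They were taken by name, as 7 of the 19 GABA-A receptor subunit genes and of the 23955 genes in the deposited tables. The choice was made with earlier results of these data known. The sites were taken by position, as the 21 of 46689 listed sites in a window set around Gabra3 on the X chromosome of the mouse build mm9, and they lie between positions 69680262 and 69716708. All 7 genes passed the filter on low counts, which left 14785 genes to test.

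The samples were primary cortical neuron cultures from C57BL/6J mouse embryos, dissociated from E16.5 cortices and harvested 7 days later. All of them carried a lentiviral short hairpin RNA (shRNA) from the pGreenPuro vector, and no group without virus was analysed here. The 5 groups, each of 2 biological replicates, were shControl1 and shControl2 (control hairpins), shAdar1 (against Adar, which encodes the editing enzyme ADAR1), shAdar2 (against Adarb1, which encodes ADAR2) and shZfr (against Zfr, which encodes a zinc finger RNA-binding protein). The study compared shAdar1 and shAdar2 with shControl1 to find sites that depend on each enzyme, and shZfr with shControl2 to find sites that depend on Zfr. shAdar2 sample 1 was sequenced as 3 technical libraries from the same neurons, which were summed here.

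GABA-A receptors are chloride channels opened by the transmitter GABA, and they carry most fast inhibition in the mature cortex. Each channel is a ring of subunits, typically alpha, beta and gamma, and the alpha and gamma subunits present set its pharmacology and where on the neuron it sits. In the Gabra3 transcript, ADAR enzymes change 1 adenosine to inosine, which is read as guanosine, so that an isoleucine codon in the third membrane-spanning segment is read as methionine.

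The 12 libraries held 15818943 to 29671858 expected counts each (fractional read assignments to genes). Against its own control each hairpin lowered its target, Adar to 30.9%, Adarb1 to 41.7% and Zfr to 37.6%. With the other control as the baseline these levels were 41.5%, 52.5% and 61.9%, and Zfr itself was 1.65-fold higher in shControl2 than in shControl1. The shZfr samples were much more alike than any other pair: a chi-square statistic of their counts over genes was 2.28 per degree of freedom, against 26.2 to 57.8 for the other pairs and 21.2 to 57.3 between technical libraries. They were counted as 2 samples, and the members' calls against either control that change when they are summed to 1 are given with both values. Summed over 8 pan-neuronal markers, all present in every group, levels in TPM (scaled to transcript length and library total) were 5643 and 5533 in shControl1, 7041 and 7185 in shControl2, 6350 and 5420 in shAdar1, 3123 and 3303 in shAdar2, and 8273 and 8426 in shZfr. In such bulk RNA, fewer neurons and less RNA per neuron cannot be told apart.

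The Gabra3 site that carried editing is shown first, because the whole editing result rests on 1 codon. The files place it at position 69690631 of the X chromosome (mm9). The spacing of the 21 listed sites was matched to the adenosines of annotated Gabra3 exons (transcript Gabra3-201). The best placement put 17 sites on an exonic adenosine and the next best put 8. At that placement the edited site is the third base of codon 342, in exon 9 of 10, within the coding sequence. The codon ATA encodes isoleucine, and with G in that base it reads as ATG, methionine. The 45 bases around it are given below for the 4 alpha subunits, from transcripts annotated on GRCm38, 5′ to 3′ on the transcript strand, with the codon at the aligned position in capitals:
Gabra3: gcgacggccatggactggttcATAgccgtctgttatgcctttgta
Gabra2: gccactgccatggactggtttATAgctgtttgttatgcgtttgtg
Gabra4: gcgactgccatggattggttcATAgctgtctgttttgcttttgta
Gabra5: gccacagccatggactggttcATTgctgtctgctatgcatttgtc
Gabra2 and Gabra4 have the same ATA codon there, at codons 317 and 323, with 38 and 40 of 45 bases identical to Gabra3. Gabra5 has ATT at codon 324, which also encodes isoleucine, and 38 identical bases. In the beta and gamma subunits 24 to 26 bases matched, close to the 21 or 22 of their next best windows, so no aligned codon is given. Sites in the genes other than Gabra3 were not analysed here.

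Of the 17 exonic sites, the isoleucine/methionine site alone was edited in more than single reads. The other 16 sites, in codons 293 to 402, held 3 edited reads of 5501 over all samples. Those 3 reads fell in codon 338 (1 of 59 reads in shAdar1 and 1 of 38 in shAdar2) and codon 402 (1 of 69 in shAdar1). The remaining 4 listed sites lay outside exons and had at most 8 reads each, so their levels are not given.

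**Figure D1:**
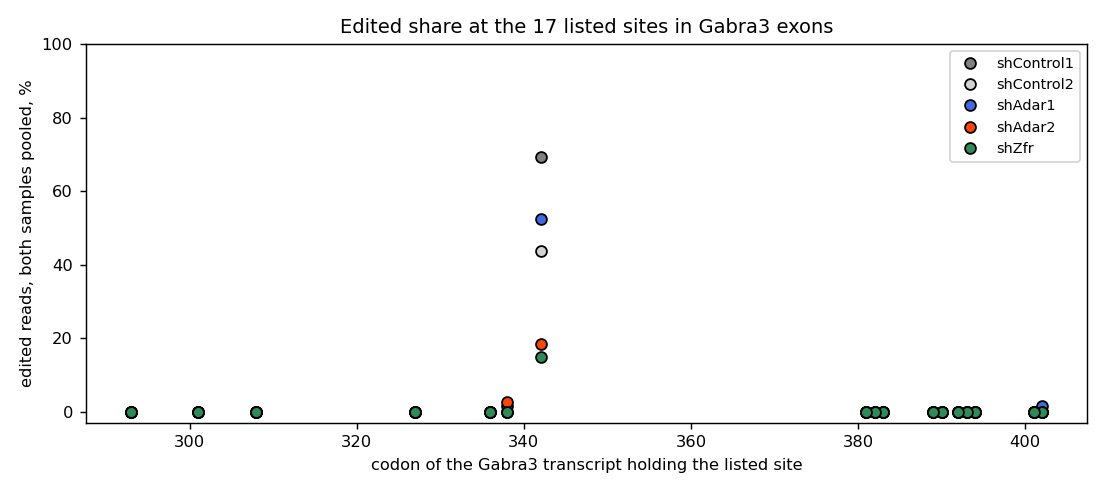
Edited share of reads (%) at the 17 listed sites in Gabra3 exons, against the codon that holds each site; points are the 5 groups, with the reads of both samples pooled. Codon 342 stands at 15.0% to 69.2%, while no other site exceeds 2.63%.

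Editing of the Gabra3 codon was highest in shControl1 and low in shAdar2 and shZfr. In shControl1, 27 of 40 and 27 of 38 reads were edited, levels of 67.5% and 71.1% (mean 69.3% ± 2.51, SD, n = 2). In shControl2 the levels were 32.0% (8 of 25 reads) and 50.0% (23 of 46), a mean of 41.0% ± 12.7 (SD, n = 2). The control hairpins thus did not overlap, and the choice of control matters for every comparison at this site.

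In shAdar1, 62.5% (15 of 24) and 46.3% (19 of 41) of reads were edited, a mean of 54.4% ± 11.4 (SD, n = 2), between the levels of the controls. In shAdar2, sample 1 had 20.6% (7 of 34 reads) and sample 2 had 0 of 4 reads, for which the exact 95% upper limit is 60.2% (75% if the limit is set at 3 reads). The 3 technical libraries of sample 1 gave 2 of 14, 5 of 16 and 0 of 4 edited reads. Every shAdar2 level lay below every shControl1 level, although sample 2 has too few reads to set a level. In shZfr, 37.5% (3 of 8 reads) of sample 1 and 0 of 12 reads of sample 2 were edited, and the exact upper limit of the latter is 26.5% (25% at 3 reads). shZfr sample 1 lay inside the range of shControl2, and sample 2 lay below it.

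With the reads of both samples pooled and exact (Clopper-Pearson) 95% intervals, editing was 69.2% (57.8 to 79.2) in shControl1, 43.7% (31.9 to 56.0) in shControl2 and 52.3% (39.5 to 64.9) in shAdar1. It was 18.4% (7.74 to 34.3) in shAdar2 and 15.0% (3.21 to 37.9) in shZfr. These intervals and limits cover counting error only, since reads were not tagged by molecule. Adarb1, the gene for ADAR2, stood at 120.4 CPM (counts scaled to library size after TMM normalization between samples) in shControl1, 95.7 in shControl2, 107 in shAdar1, 50.2 in shAdar2 and 47.3 in shZfr. Zfr stood at 279 CPM in shControl1, 459 in shControl2, 307 in shAdar1, 188 in shAdar2 and 173 in shZfr. shAdar2 and shZfr thus had the least Adarb1, the least Zfr and the lowest Gabra3 editing, and the part of either transcript in the editing level was not tested.

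**Figure D2:**
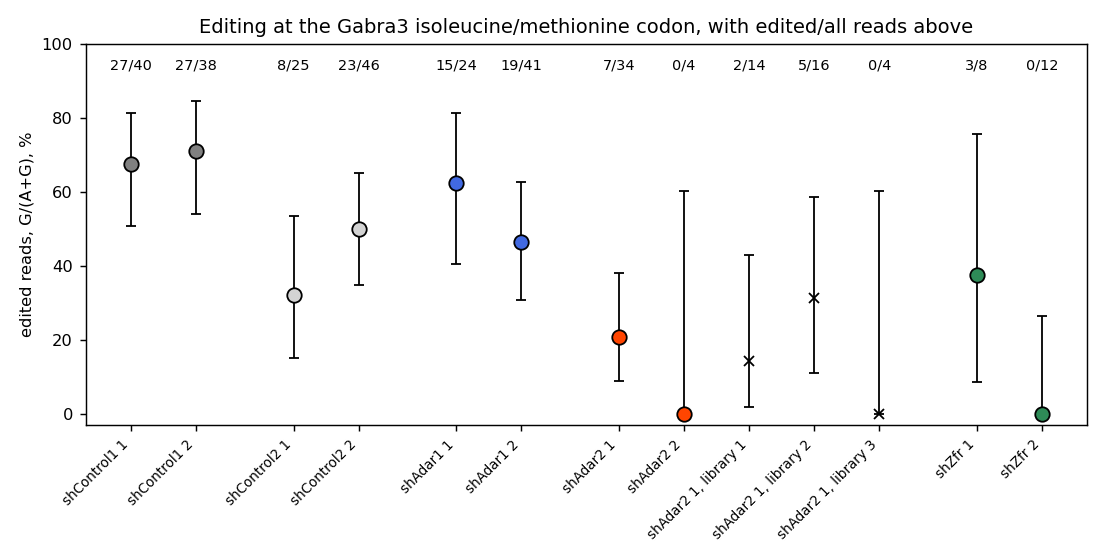
Editing level (%) of the Gabra3 isoleucine/methionine codon in each sample (circles) and in the technical libraries of shAdar2 sample 1 (crosses), with exact 95% binomial intervals; edited and total reads are written above. shControl1 stands at 67.5% and 71.1%, and the shAdar2 and shZfr samples at 0% to 37.5% on 4 to 34 reads.

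Tested over the sites that every sample covered with 20 reads or more (edgeR quasi-likelihood test on edited and unedited reads), the difference of shAdar1 from shControl1 was −14.9 percentage points and was not called (adjusted p = 0.149), while 33.4% of the 890 sites tested were called lower in shAdar1. Against shControl2 it was 13.4 points higher (adjusted p = 0.596). Between the controls, the difference of shControl2 from shControl1 was −28.3 points with an adjusted p of 0.0486, and 9.61% of 989 sites were called lower. That call was lost in each of the 4 fits that leave out 1 control sample (adjusted p = 0.140 to 0.315).

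shAdar2 and shZfr did not reach 20 reads in each sample, so their tests use a minimum of 4 reads, which was chosen after the data were seen. The difference of shAdar2 from shControl1 was −59.0 points (adjusted p = 0.000719), where 8.55% of 1755 sites were called lower. The point differences with these tests are between means of sample levels, each sample weighted alike. The 4 reads of shAdar2 sample 2 thus count as much in them as the 34 of sample 1. From pooled reads the difference of shAdar2 from shControl1 was −50.8 points. Without shAdar2 sample 2, and with 20 reads as the minimum, it was −48.7 points and was not called (adjusted p = 0.0664). Against shControl2 the shAdar2 difference was −30.7 points and not called (adjusted p = 0.219), with 4.15% of sites called lower. From pooled reads it was −25.2 points.

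The fall in shAdar2 was therefore called against 1 control hairpin and not against the other. Compared directly, shAdar1 was edited 44.1 points more than shAdar2 (adjusted p = 0.0196), where 9.50% of sites were called higher. From pooled reads it was 33.9 points more. The difference of shZfr from shControl2 was −22.3 points (adjusted p = 0.420), with 1.1% of 4839 sites called lower. From shControl1 it was −50.5 points (adjusted p = 0.00240), with 18.9% of sites called lower. From pooled reads the shZfr differences were larger, −28.7 points from shControl2 and −54.2 from shControl1. With a minimum of 20 reads, where the Gabra3 site was not tested, 162 of 1312 sites were called lower against shControl2. Against shControl1 425 of 930 sites were called lower with that minimum. A change of Gabra3 editing in shZfr was not detectable against its own control on 20 reads in all.

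The transcript levels of the subunits differed widely from one another. In shControl1 the length-corrected level was highest for Gabra2, at 290.1 and 323 TPM, followed by Gabra5 at 152 and 173 TPM and Gabrb2 at 140.0 and 141 TPM. Gabrb1 (54.95 and 72.8 TPM), Gabra4 (53.9 and 61.3 TPM) and Gabra3 (54.2 and 55.2 TPM) overlapped one another. Gabrg1 was lowest, at 9.92 and 10.0 TPM. Gabra2 was also the highest of the 7 in the other 4 groups, and Gabrg1 was the lowest except in shZfr, where at 42.1 and 42.3 TPM it lay above Gabra3 (28.8 and 25.8 TPM) and Gabra4 (33.2 and 35.9 TPM).

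**Figure D3:**
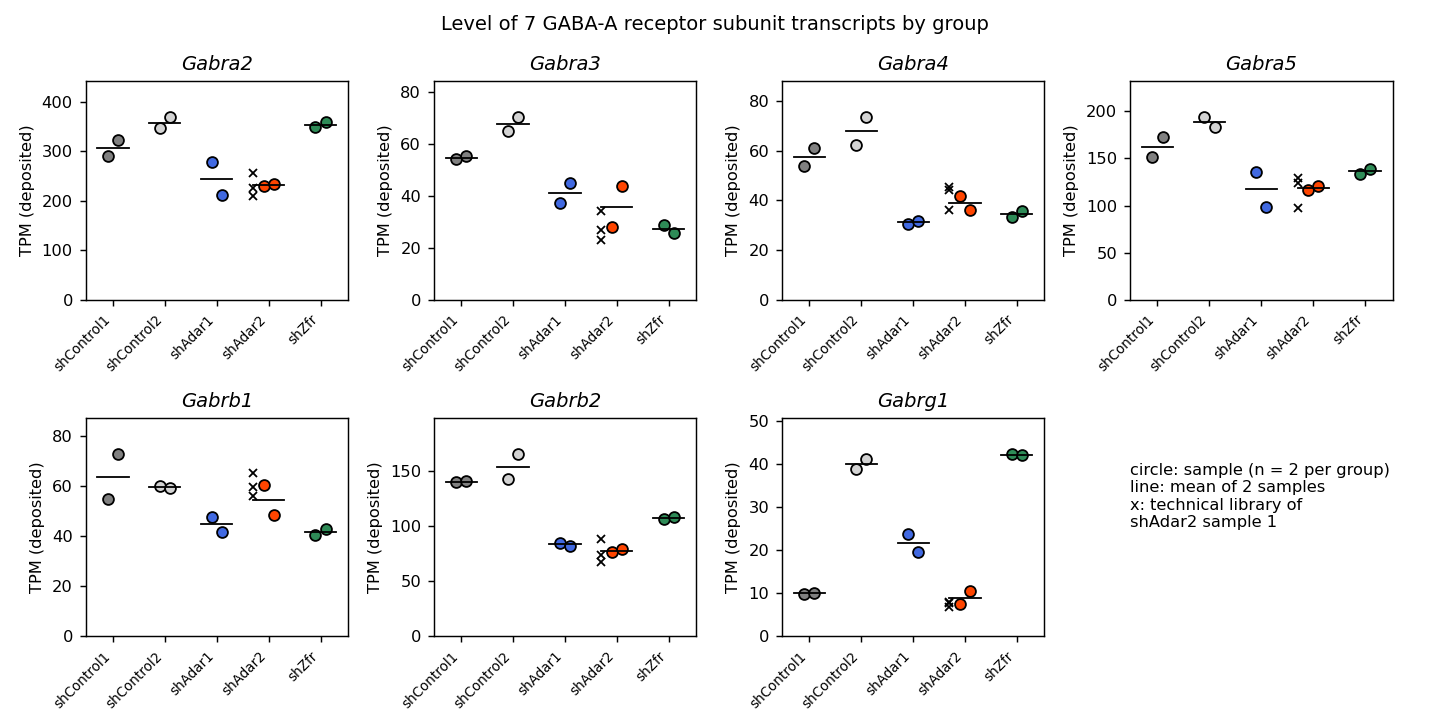
Level of each subunit transcript (TPM, each panel with its own axis from 0) in the 2 samples of each group (circles), their mean (line) and the technical libraries of shAdar2 sample 1 (crosses). Gabra4 and Gabrb2 are lower in all 3 knockdown groups than in both controls, and Gabrg1 is high in shControl2 and shZfr.

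Gabra3 fell most in shZfr. Its level was 70.5 and 68.7 CPM in shControl1, 75.1 and 81.2 in shControl2, 52.1 and 61.4 in shAdar1, 35.5 and 53.0 in shAdar2, and 34.6 and 31.1 in shZfr. Every knockdown sample lay below every control sample. The fall in shZfr against shControl2 was 1.25 ± 0.18 (SE) on the log2 scale, to 42.0% of the control (edgeR, adjusted p = 0.000907). In shAdar2 it fell by 0.66 ± 0.17 against shControl1 (adjusted p = 0.0120). The shAdar2 call was lost without shControl1 sample 1 (adjusted p = 0.0532) and with only the compared groups in the fit (adjusted p = 0.0561). The shAdar2 samples were unlike each other, and the change was −0.40 without sample 1 and −0.98 without sample 2. In shAdar1 the log2 change was −0.30 ± 0.17 (adjusted p = 0.278) and was not called. Ordered by level, neighbouring groups did not differ (adjusted p = 0.0623 to 0.458), but the log2 difference of shZfr from shAdar1 was −0.79 ± 0.18 (adjusted p = 0.00663).

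Gabra4, an alpha subunit known mainly from receptors outside synapses, fell in all 3 knockdowns and against either control. Its level was 78.1 and 85.0 CPM in shControl1 and 79.9 and 94.6 in shControl2. It was 47.7 and 48.4 CPM in shAdar1, 59.2 and 48.4 in shAdar2, and 44.5 and 48.1 in shZfr. The knockdown samples did not overlap the controls. On the log2 scale it fell by 0.76 ± 0.13 in shAdar1 (edgeR, adjusted p = 0.00555) and by 0.60 ± 0.13 in shAdar2 (adjusted p = 0.00450), both against shControl1. In shZfr it fell by 0.91 ± 0.13 against shControl2 (adjusted p = 0.000909). The shAdar1 call was lost with the controls pooled into 1 group (−0.81, adjusted p = 0.0996). The 3 knockdown groups did not differ from one another by the test (adjusted p = 0.166 to 0.771).

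Gabra2, the most abundant member per length, was called lower in shAdar2 and in neither other knockdown against its own control. Its log2 change in shAdar2 was −0.45 ± 0.13 against shControl1 (edgeR, adjusted p = 0.0199). Without shControl1 sample 2 that call was lost (adjusted p = 0.0892), as with only the compared groups in the fit (adjusted p = 0.0512). Its level was 234 and 249.7 CPM in shControl1, 181 and 175 in shAdar2, and 239.7 and 179 in shAdar1. shAdar1 sample 1 thus sat with the controls and sample 2 with shAdar2, and without shAdar1 sample 1 a fall was called in shAdar1 (−0.46, adjusted p = 0.0445). In shZfr it stood at 259 and 267 CPM beside 247 and 263 in shControl2, a log2 difference of 0.04 ± 0.13 (adjusted p = 0.835). Compared directly, it was higher in shZfr than in shAdar2 by 0.56 ± 0.13 (adjusted p = 0.00443).

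Gabra5, a subunit best known from extrasynaptic receptors of the hippocampus, had 138 and 151 CPM in shControl1 and 156 and 148 in shControl2. It had 132 and 94.7 CPM in shAdar1, 103 and 102 in shAdar2, and 112 and 117 in shZfr. No knockdown sample reached the lowest control. It fell by 0.49 ± 0.14 on the log2 scale in shAdar2 (edgeR, adjusted p = 0.0175), a call lost without shControl1 sample 2 (adjusted p = 0.0897). The changes in shAdar1 (−0.35 ± 0.14, adjusted p = 0.121) and shZfr (−0.41 ± 0.14, adjusted p = 0.0531) were not called. Leaving out shAdar1 sample 1, which was closest to the controls, gave −0.63 in shAdar1 (adjusted p = 0.0167), and against shControl2 the shAdar1 change was called (−0.42, adjusted p = 0.0454). The shZfr change was called with DESeq2 (adjusted p = 0.0329), with no filter on low counts (adjusted p = 0.0406) and with only the compared groups in the fit (adjusted p = 0.000212). The last of these fits takes its spread in part from the 2 shZfr samples, which were more alike than technical libraries.

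Of the beta subunits, which complete the GABA binding site with the alpha subunits, Gabrb2 fell in every knockdown. It had 381 and 366 CPM in shControl1, 344 and 401 in shControl2, 248 and 236 in shAdar1, 202 and 200.4 in shAdar2, and 269 and 274 in shZfr. Each knockdown lay below all 4 control samples. On the log2 scale it fell by 0.63 ± 0.10 in shAdar1 (edgeR, adjusted p = 0.00409), by 0.89 ± 0.10 in shAdar2 (adjusted p = 0.000155) and by 0.45 ± 0.10 in shZfr (adjusted p = 0.00774). With the controls pooled the shAdar1 call was lost (adjusted p = 0.0996). With the shZfr samples summed to 1 the shZfr call was lost (−0.45, adjusted p = 0.0764). The shZfr call was also lost without shControl2 sample 2 or either shZfr sample (adjusted p = 0.0648 to 0.0805). Compared directly, Gabrb2 was lower in shAdar2 than in shZfr (log2 difference 0.43 ± 0.10, adjusted p = 0.00406). Gabrb1, at 33.6 and 42.5 CPM in shControl1 and 32.2 and 32.0 in shControl2, was not called in any knockdown against its own control. Its changes were −0.40 ± 0.16 in shAdar1 (adjusted p = 0.128), −0.26 ± 0.16 in shAdar2 (adjusted p = 0.212) and −0.46 ± 0.17 in shZfr (adjusted p = 0.0637). Without shAdar2 sample 1 the Gabrb1 change in shAdar2 was −0.47. In shZfr Gabrb1 was called with only the compared groups in the edgeR fit (−0.52, adjusted p = 0.00111). That fit takes its spread in part from the 2 closely alike shZfr samples.

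Gabrg1, a gamma subunit that in cortex is also known from glial cells, differed most between the control hairpins. It had 16.8 and 16.2 CPM in shControl1 and 58.1 and 61.9 in shControl2, a 3.64-fold difference (log2 1.86 ± 0.16, edgeR, adjusted p = 5.04e-05). No other member was called between the controls. It had 43.2 and 34.8 CPM in shAdar1, 12.3 and 16.4 in shAdar2, and 66.0 and 65.7 in shZfr. shAdar1 therefore lay between the controls, 1.24 ± 0.16 above shControl1 on the log2 scale (adjusted p = 0.00154) and at −0.62 ± 0.15 from shControl2 (adjusted p = 0.0126). shAdar2 did not differ by the test from shControl1 (−0.22 ± 0.16, adjusted p = 0.283) and its log2 difference from shControl2 was −2.08 ± 0.16 (adjusted p = 1.15e-05). The shAdar2 samples differed: without sample 2 a fall from shControl1 was called (−0.43, adjusted p = 0.0355), and without sample 1 the value was −0.017. shZfr did not differ by the test from shControl2 (0.13 ± 0.15, adjusted p = 0.539) and was 2.00 ± 0.16 above shControl1 (adjusted p = 2.49e-05).

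Markers of other cells moved between the controls as well. Of 11 astrocyte markers, all above 0 in every group, 10 were higher in shControl2 than in shControl1 and none was lower. Their summed level was 664 and 462 TPM in shControl1, 1626 and 1948 in shControl2, 740.0 and 1252 in shAdar1, 411 and 802 in shAdar2, and 834 and 799 in shZfr. Of 8 markers of proliferating progenitors, also all above 0, 5 were higher in shControl2 and none was lower. The same counts held for 8 tested markers of the oligodendrocyte lineage. Over all genes tested 19.9% were higher and 23.2% lower. Of 12 excitatory cortical neuron markers 6 were higher and 1 lower, and of 13 interneuron markers 4 were higher and 2 lower. Of 10 tested endothelial, mural and fibroblast markers 3 were higher and 2 lower. Of 8 pan-neuronal markers 2 were higher and 1 lower, and none of 4 tested microglial markers was called. The progenitor sum was 120.2 and 108 TPM in shControl1, 302 and 324 in shControl2, 121 and 305 in shAdar1, 67.8 and 233 in shAdar2, and 617 and 581 in shZfr. Gabrg1 was alike in shControl2 and shZfr while the astrocyte sum was lower in shZfr, and the part of these cells in the Gabrg1 level was not tested.

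**Figure D4:**
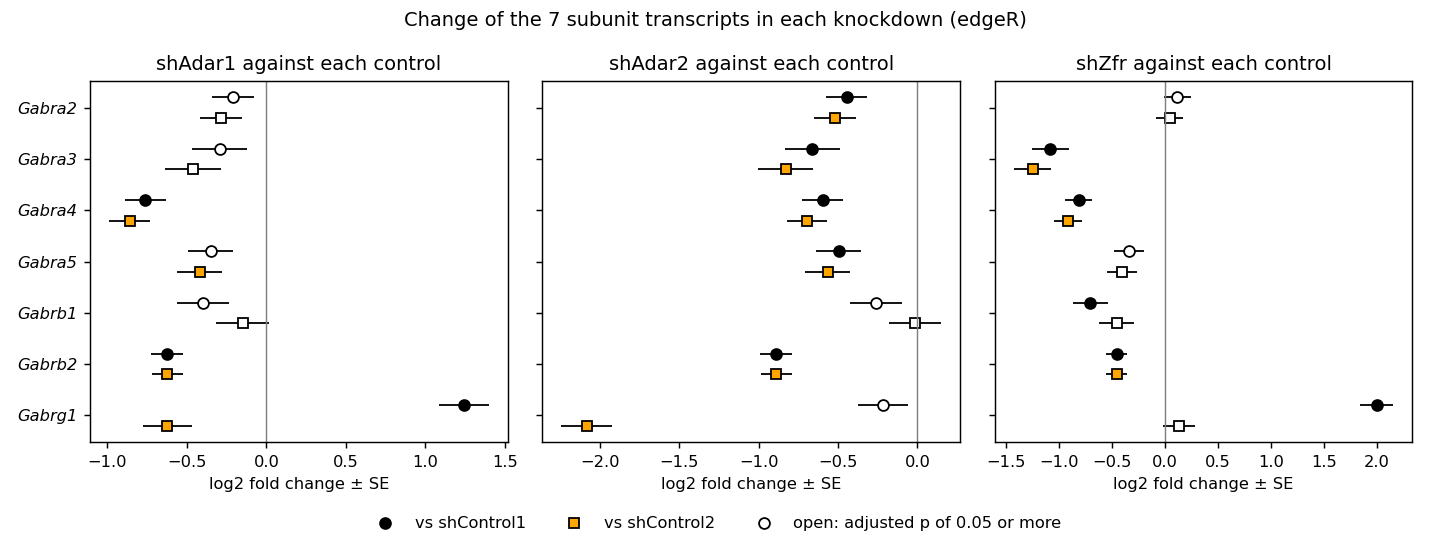
Log2 fold change ± SE of each subunit in the knockdowns, against shControl1 (circles) and shControl2 (squares); filled symbols have an adjusted p under 0.05 (edgeR). Gabra4 and Gabrb2 are filled on the lower side in all 6 comparisons, and Gabrg1 changes side in shAdar1 with the control.

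The 7 members were chosen with earlier results of these data known, so their counts beside the all-gene shares are a description only. Counted over the 7 members, 2 fell (Gabra4 and Gabrb2) and 1 rose (Gabrg1) in shAdar1 against shControl1. Over all genes tested 6.90% fell and 9.33% rose. The members' median log2 change was −0.35, against 0.02 over all genes. In shAdar2 5 of 7 fell and none rose (all genes 23.2% lower and 23.2% higher), with a median of −0.49 against 0.04. In the same comparison 4 of 8 pan-neuronal markers fell and none rose, with a median of −0.67, and their part in the subunits' fall was not tested. In shZfr against shControl2 3 of 7 fell (Gabra3, Gabra4 and Gabrb2) and none rose (all genes 14.1% lower and 16.7% higher), with a median of −0.45 against 0.05. There 1 of 8 pan-neuronal markers fell and 1 rose, with a median of 0.23.

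Against the other control, 4 members fell in shAdar1 and none rose (all genes 13.9% lower and 19.3% higher), and 6 fell in shAdar2 and none rose (27.3% lower and 32.2% higher). In shZfr against shControl1 4 fell and Gabrg1 rose (23.4% lower and 22.8% higher). With the shZfr samples summed to 1, 2 of those 4 were called: Gabra3 (adjusted p = 0.00978) and Gabra4 (0.0132) passed, whereas Gabrb1 went from 0.00675 to 0.0548 and Gabrb2 from 0.00444 to 0.0538. Between the controls 1 of 7 rose and none fell, and over all genes tested 19.9% rose and 23.2% fell from shControl1 to shControl2. shAdar1 and shAdar2 share shControl1 as their control, so their values above are not independent of each other. Tested directly, they differed in Gabrg1 alone among the 7, which was 1.46 ± 0.16 higher in shAdar1 on the log2 scale (edgeR, adjusted p = 0.000204).

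Added over the 7 subunits, the level was 796 ± 57.7 TPM in shControl1, 935 ± 36.7 in shControl2, 584 ± 76.5 in shAdar1, 566 ± 7.95 in shAdar2 and 743 ± 14.3 in shZfr (SD, n = 2 each). These sums were not tested, and TPM lack the normalization between samples of the tested counts. From shControl1 to shControl2 Gabra2 went from 307 to 357 TPM but from 242 to 255 CPM. Gabrb2 went from 140 to 154 TPM but from 373 to 372 CPM, and neither was called. Within the summed TPM Gabra2 made up 38.5% in shControl1, 38.2% in shControl2, 41.6% in shAdar1, 40.9% in shAdar2 and 47.5% in shZfr. The share of Gabra3 was 7.24% ± 0.10 in shControl2 and 3.68% ± 0.36 in shZfr. The shares are of transcripts and say nothing of receptors at the membrane, which were not measured.

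**Figure D5:**
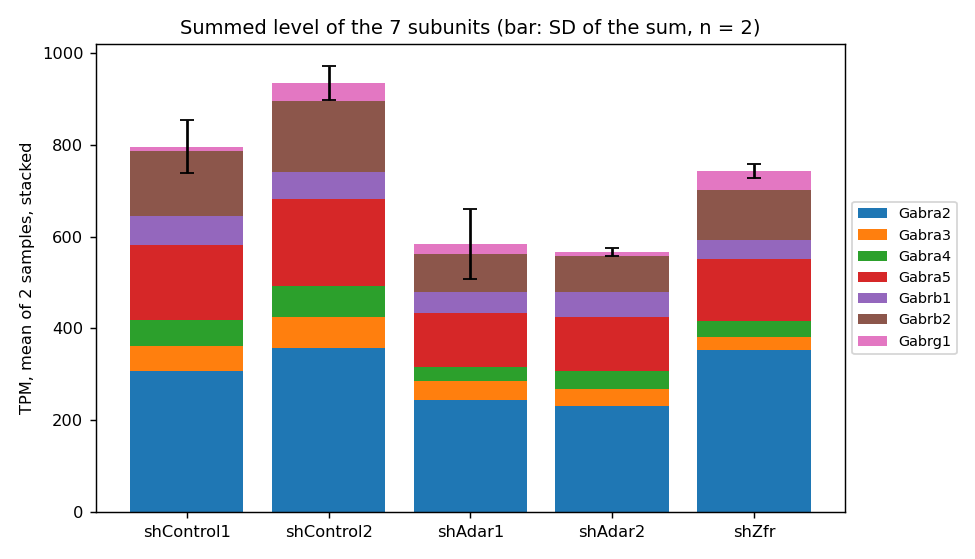
Mean TPM of the 7 subunits (n = 2 samples per group), stacked; the bar on each stack is the SD of the sum. The stacks are lowest in shAdar1 (584) and shAdar2 (566), and Gabra2 makes the largest layer in each group.

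The 4 genes Gabrg1, Gabra2, Gabra4 and Gabrb1 lie in the same region of chromosome 5 (GRCm38, from position 70751047 to 72149572). Gabra5 is on chromosome 7, Gabrb2 on chromosome 11 and Gabra3 on the X chromosome. Between the controls Gabrg1 differed by 1.86 on the log2 scale, while Gabra2 (0.07), Gabra4 (0.10) and Gabrb1 (−0.25) were not called (adjusted p = 0.245 to 0.672). In shZfr against shControl2 Gabra4 fell by 0.91 and Gabra2 stood at 0.04.

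Of the 12 other GABA-A subunit genes 8 were tested, and 3, 3 and 4 of them fell in shAdar1, shAdar2 and shZfr against their own controls, with none higher (all genes 6.90%, 23.2% and 14.1% lower). The median log2 changes were −1.06, −0.29 and −0.90. Against the other control 4, 5 and 2 fell and none rose (all genes 13.9%, 27.3% and 23.4% lower), with medians of −0.77, −0.57 and −0.40. Gabrq, the theta subunit, fell by 2.34 ± 0.40 in shAdar1 (edgeR, adjusted p = 0.00560) and by 2.02 ± 0.38 in shAdar2 (adjusted p = 0.00243), from 6.39 CPM in shControl1. Gabrg3 fell by 1.41 ± 0.20 in shZfr against shControl2 (adjusted p = 0.000995), but against shControl1 it stood at −0.37 ± 0.20 (adjusted p = 0.165). It was 1.04 ± 0.20 higher in shControl2 than in shControl1 (adjusted p = 0.00255).

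For genes that make, move and clear GABA, the counts depended on the control. Of 7 tested, 4 rose and none fell in shAdar1, 3 rose and none fell in shAdar2, and 3 fell and none rose in shZfr, each against its own control (all genes 9.33% and 23.2% higher, and 14.1% lower). Against the other control 0 rose and 1 fell in shAdar1, 2 rose and 2 fell in shAdar2, and 1 rose and 1 fell in shZfr. Over all genes those comparisons had 19.3%, 32.2% and 22.8% higher and 13.9%, 27.3% and 23.4% lower. Between the controls 4 were higher in shControl2 and none lower (all genes 19.9% higher and 23.2% lower). Gad1, which makes GABA, rose by 1.45 ± 0.25 in shAdar1 (edgeR, adjusted p = 0.00599), but against shControl2 it stood at 0.31 ± 0.24 (adjusted p = 0.366). In shAdar2 Gad1 rose against shControl1 (1.97 ± 0.25, adjusted p = 0.000312) and against shControl2 (0.83 ± 0.25, adjusted p = 0.0158). Gad2, its relative, fell in shZfr by 1.21 ± 0.25 against shControl2 (adjusted p = 0.00597), but against shControl1 it stood at −0.16 ± 0.25 (adjusted p = 0.621). Summed over 13 markers of GABAergic interneurons, which include such genes, the level was 654 and 597 TPM in shControl1, 1001 and 992 in shControl2, 667 and 1117 in shAdar1, 1005 and 742 in shAdar2, and 533 and 549 in shZfr. shControl2 was thus high beside both shControl1 and shZfr, and the part of these cells in the values above was not tested.

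Of 21 genes for assembly, trafficking and clustering of the receptor, 5 rose and 1 fell in shAdar1, 7 rose and 3 fell in shAdar2, and none rose and 5 fell in shZfr, each against its own control (all genes 9.33%, 23.2% and 16.7% higher, and 6.90%, 23.2% and 14.1% lower). The balance differed against the other control. There 2 rose and 4 fell in shAdar1, 9 and 5 in shAdar2, and 5 and 9 in shZfr. Over all genes those comparisons had 19.3%, 32.2% and 22.8% higher and 13.9%, 27.3% and 23.4% lower. Zdhhc3, which palmitoylates gamma subunits, fell in all 3, by 0.42 ± 0.09, 0.76 ± 0.09 and 0.66 ± 0.09 on the log2 scale (edgeR, adjusted p = 0.0148, 0.000207 and 0.000753). Against shControl2 its change in shAdar1 was −0.19 ± 0.09 and was not called (adjusted p = 0.143). Of 5 GABA-B receptor genes and partners, 1, 2 and 1 rose and 0, 0 and 1 fell in shAdar1, shAdar2 and shZfr against their own controls, beside the all-gene shares just given. With the other control 0, 1 and 2 rose and 3, 1 and 2 fell, beside the all-gene shares given for that control. Kctd16, a GABA-B auxiliary subunit, rose by 1.08 ± 0.18 in shAdar2 (adjusted p = 0.00125) and fell by 1.32 ± 0.19 in shZfr (adjusted p = 0.000944). Of 5 cation-chloride transporters, which set the chloride gradient, 1 rose and 1 fell in shAdar1, 2 rose and 1 fell in shAdar2, and none was called in shZfr, each against its own control. With the other control 0, 2 and 2 rose and 1 fell in each. The all-gene shares for both sets of comparisons are those given above for the 21 genes. Slc12a5, the main neuronal chloride exporter, was higher in shAdar2 by 0.99 ± 0.26 against shControl1 (adjusted p = 0.0125) and by 1.00 ± 0.26 against shControl2 (adjusted p = 0.00861). Its shAdar2 samples differed widely, at 227 ± 86.3 CPM (SD, n = 2), beside 115 ± 26.1 in shControl1 and 114 ± 21.1 in shControl2.

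Genes whose log2 CPM was most like that of a member over the 10 samples were sought among 11110 genes with a mean of at least 5 CPM. The 10 samples are 5 pairs of replicates, so the correlations follow mainly the 5 group means and are given as a description. For Gabra3 the nearest genes were Adam12 (Pearson r = 0.98), Sh3bgrl2 and Cyp7b1 (both 0.97). For Gabrb2 they were Eps15 (0.99), Zfp951 and Erp44 (both 0.97), and for Gabra4 R3hdm1 (0.96), Slc24a2 (0.95) and Ttc39b (0.94). For Gabrg1 they were Btbd3, Tlk1 and Rspry1 (all 0.99). For the other members the nearest were Nrp1 for Gabra2 (0.97), Kdm5c for Gabra5 (0.94) and Peg13 for Gabrb1 (0.97). No other member was among the 3 nearest genes of any member.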

How the data were processed

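RNA depleted of ribosomal RNA was sequenced from 10 samples in 12 libraries. The authors deposited RSEM expected counts and TPM per gene, per the file headers. They also deposited, per the file headers, counts of A and G reads per listed site and the edited fraction, which equals G over A plus G. The submitters' processing notes name build mm9, RSEM 1.2.30, STAR 2.5.4b, DESeq2 1.20.0, Trim Galore 0.4.5 and SAMtools 1.4. The choice of sites and the read filters are not given in the sources.

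Expected counts were rounded, the 3 technical libraries of shAdar2 sample 1 summed, and genes tested with edgeR 4.0.16 (R 4.3.3; filterByExpr, TMM, quasi-likelihood F test, all 10 samples in 1 fit), with Benjamini-Hochberg adjustment over all genes. A call is an adjusted p under 0.05, and the SE is the log2 fold change divided by the square root of F. TPM of the technical libraries were averaged. Site reads were tested with edgeR, with a coefficient per library, where every sample had 20 or more reads and the comparison held 5 or more of each base. A minimum of 4 reads, Fisher's exact test with no minimum and the shZfr samples summed were added after the data were seen. The gene and site tests were also run on simulated data with known changes. For sites this covered shAdar1 against shControl1 with a minimum of 20 reads, and not the minimum of 4.

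Alternatives were DESeq2 1.42.0, RLE normalization, no filter, only the compared groups, a replicate block, each sample left out, each technical library used alone, other or pooled controls, and coverage minimums of 10 and 40. The named genes are the 7 members, the hairpins' targets, up to 4 genes per pathway list with the lowest p in the 4 main comparisons, and the 3 genes most like each member. Some genes that this rule names are not reported here. Members and lists were chosen with earlier results of these data known. The labels call the replicates biological, and p-values measure the spread between these samples only. Exons come from GENCODE on GRCm38, and no coordinate was converted between builds.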

Additional observations from a re-analysis of the deposited data

How the results depend on the processing

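Against 3 members called in shAdar1, leaving out 1 sample gave 3 to 5 and pooling the controls gave 0. Over all genes, pooling left 3 higher and 2 lower calls in shAdar1, and fits of only the compared groups gave 1950 and 2097 in shAdar2 and 3854 and 4055 in shZfr. By construction, pooling puts the difference between the hairpins into the spread. The shZfr fit of only the compared groups takes its spread in part from the 2 shZfr samples, which were much more alike than other pairs. Against 5 called in shAdar2, leave-one-out fits gave 3 to 6 and a fit of only the compared groups 3. Against 3 called in shZfr, leave-one-out fits gave 2 to 3, only the compared groups 5 and the other control 5. The Gabra3 site, not tested in shAdar2 in the main test, was 1 called site with a minimum of 4 reads and 1 by Fisher's exact test on pooled reads with no minimum (adjusted p = 4.97e-05). Fisher's test takes each read as independent, so its p covers counting error and not the spread between samples. The 1 site called between the controls became 0 with minimums of 4 or 10 reads, by Fisher's exact test with no minimum, in every leave-one-out fit (0 to 0) and with the replicate block. With a minimum of 40 reads it could not be tested.

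Signs turned for Gabrg1 in shAdar1 with the other control (−0.62) and for the site's editing difference there (13.4 points). The remaining turns were near 0 and not called: Gabra2 in shZfr with only the compared groups (−0.021) or without shControl2 sample 1 (leave-one-out range −0.012 to 0.085), and Gabra4 between the controls without shControl2 sample 2 (range −0.013 to 0.23). Gabrb2 between the controls turned with DESeq2 (0.035), RLE normalization (0.036), only the compared groups (0.020) and without sample 1 of either control (range −0.10 to 0.12). Apart from the pooled controls, the cause of these changes was not tested.

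Replicate numbers did not pair the samples (correlations of same-numbered deviations were −0.12 to 0.28 over 10 pairs of groups). The replicate block left the members called at 3 in shAdar1, 5 in shAdar2, 3 in shZfr and 1 between the controls, and moved the site between the controls to an adjusted p of 0.0993. In all, 299 values for single genes or the site kept their direction and side of the threshold, 20 lost a call, 12 gained one and 10 turned. Depth limits the Gabra3 site: shAdar2 sample 2 had 4 reads and shZfr 8 and 12.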

Other observations

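The Gabra3 site was covered unevenly relative to the Gabra3 transcript. Per 1000 Gabra3 expected counts, 15.9 to 25.9 reads covered the site in the controls and shAdar1. The 3 technical libraries of shAdar2 sample 1 had 10.0, 18.6 and 3.70, and shAdar2 sample 2 had 4.12. The shZfr samples had 13.3 and 19.4. Low coverage in shAdar2 was not particular to this site. Over all listed sites the shAdar2 libraries had 225729, 293215 and 111349 reads in sample 1 and 110255 in sample 2. The libraries of the other groups had 498000 to 676955.

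Subunit levels also differed between these technical libraries, which were made from the same neurons. Gabra3 stood at 34.0, 23.2 and 26.7 TPM in them, beside 43.9 TPM in shAdar2 sample 2. Gabrb2 stood at 88.0, 67.2 and 74.0 TPM and Gabra5 at 124, 129 and 97.0 TPM. Gabrg1 stood at 7.71, 7.91 and 6.91.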
